A study of Arabidopsis thaliana with 12 samples.

Results

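Windows with balanced RNA signal on both strands are intervals of 3000 bp in which the plus and the minus strand of the Arabidopsis thaliana genome both gave substantial RNA. They were chosen from 1919 windows that the study treats as putative intragenic enhancers. For each window the mean signal of each strand was taken over the 3 uninduced poly(A)+ libraries. A window was kept where the smaller mean reached a fixed level and was at least 0.2 times the larger one, which left 245 of 1919 windows. That level, given with the processing, is the smallest value above 0 in the library with the highest detection limit, uninduced ribo-minus replicate 2. Overlapping windows joined into 220 loci, so neighbouring windows are not independent. The name given to these windows speaks of transcription, whereas the libraries measured the RNA present.

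The study asked whether these places give RNA in seedlings whose exosome is depleted or intact, and whether that RNA has a poly(A) tail. All 12 libraries came from 7-day-old whole seedlings of the RRP41-iRNAi line, in which RNA interference against RRP41, the gene of an exosome core subunit, can be induced. Induced seedlings (rrp41-i) had germinated and grown on 1/2 MS plates that held 8 mM 17b-estradiol. Uninduced seedlings of that line, called RRP41 (WT) by the submitters, were the control. Ribo-minus libraries (ribosomal RNA depleted) and poly(A)+ libraries were made from shared total RNA of 3 biological replicates per condition. The 4 groups were therefore induced ribo-minus, uninduced ribo-minus, induced poly(A)+ and uninduced poly(A)+, with 3 libraries each. Both conditions carry the construct, and the promoter behind it and the number of plant lines used are not given in the sources used here. Effects of estradiol itself, of the induced construct and of lower RRP41 cannot be told apart, and RRP41 lay in no window, so how far its RNA was lowered is unknown. In whole seedlings, fewer cells of a type and less RNA per cell cannot be told apart either.

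Each strand of each window has 1 deposited value, a signal whose unit is not stated. Summed over all windows and both strands it was 26531272 to 31455657 in the induced and 18738150 to 22715708 in the uninduced ribo-minus libraries, against 55804893 to 58489785 in the poly(A)+ libraries. The number of reads is unknown, which leaves no counting interval. The lowest values above 0 ranged over libraries from 107 up to that level. Plus and minus values coincided in 100% of windows in uninduced ribo-minus replicate 1, so that library was left out of every comparison of strands, which leaves 2 uninduced ribo-minus libraries. In strongly transcribed windows with genes on 1 strand, the median signal of the other strand was 0% to 2.05% of the gene strand in the other 11 libraries. None of the 11 seedling, pollen and seed marker genes looked for lay in any window, so the tissue label could not be checked from markers.

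As background, Arabidopsis genes are packed closely, and neighbouring genes often lie on opposite strands. Where their 3′ ends face each other (convergent genes) the transcripts may overlap at their tails, and where their 5′ ends face each other (divergent genes) a stretch of DNA serves as promoter region for both. RNA from the strand opposite a gene is called antisense. The exosome is a 3′ exonuclease complex that destroys or shortens RNA, and its known substrates include precursors of ribosomal, small nuclear and small nucleolar RNA and short-lived antisense and promoter-derived transcripts.

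The balanced windows were mostly places where genes meet, and the sequences below are the stretches where they do so in the windows that the results turn on. They are given 5′ to 3′ on the plus strand of TAIR10, from the RefSeq copy of that assembly, which is the build named in the submitters' processing notes. Capitals mark a match, on either strand, to one of the motifs AATAAA (a plant poly(A) signal), TATAAA (the TATA box core), TGGGCC or TGGGCT (site II elements), AAACCCTA (the telo box) and CACGTG (the G-box, which reads the same on both strands). AATAAA and TATAAA can share bases. Where 2 genes overlap at their ends, only 30 central bases of the overlap are shown.
AT1G79240 and AT1G79245, facing 3′ ends, chr1:29804245-29804544, the 300 central bases of a gap of 398 bp, beside a strand that differed after induction in both RNA fractions: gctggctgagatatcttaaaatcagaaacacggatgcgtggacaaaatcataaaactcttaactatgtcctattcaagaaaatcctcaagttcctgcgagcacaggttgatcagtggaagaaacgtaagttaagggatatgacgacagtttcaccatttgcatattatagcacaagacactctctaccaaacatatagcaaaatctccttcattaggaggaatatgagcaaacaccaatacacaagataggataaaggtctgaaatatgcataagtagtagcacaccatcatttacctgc
AT5G47690 and AT5G47700, facing 3′ ends, chr5:19327432-19327565, the whole gap, at one of the highest weaker strands: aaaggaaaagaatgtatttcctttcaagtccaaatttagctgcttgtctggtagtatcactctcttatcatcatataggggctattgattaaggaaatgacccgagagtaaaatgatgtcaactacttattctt
TPS11 and SCY1, facing 3′ ends, chr2:8112011-8112083, the whole gap, at another of them: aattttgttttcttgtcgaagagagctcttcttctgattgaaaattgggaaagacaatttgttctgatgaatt
AT1G15740 and TPL, overlapping 3′ ends, chr1:5414854-5414883, 30 of 103 shared bases, at a window close to equality of the strands: ttgcacaatagaaaatctatgtgaaggtaa
AT3G57760 and U2.3, facing 3′ ends, chr3:21397245-21397261, the whole gap, at a small nuclear RNA gene: ataatttaacttctaat
XRN3 and AT1G75670, facing 3′ ends, chr1:28415119-28415151, the whole gap, at a gene of RNA decay: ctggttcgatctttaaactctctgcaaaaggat
CSTF64 and AT1G71810, overlapping 3′ ends, chr1:27002422-27002451, 30 of 45 shared bases, at a gene of 3′ end formation: aaaaactgagattgtTTTATTtgatgaaga
AT3G19663 and AT3G19660, facing 5′ ends, chr3:6826586-6826663, the whole gap, at the divergent pair with the highest weaker strand: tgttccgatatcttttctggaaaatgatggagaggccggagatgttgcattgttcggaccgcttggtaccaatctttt
AT3G02030 and AK3, facing 5′ ends, chr3:344261-344560, the 300 central bases of a gap of 995 bp, at a pair with 1 changed strand: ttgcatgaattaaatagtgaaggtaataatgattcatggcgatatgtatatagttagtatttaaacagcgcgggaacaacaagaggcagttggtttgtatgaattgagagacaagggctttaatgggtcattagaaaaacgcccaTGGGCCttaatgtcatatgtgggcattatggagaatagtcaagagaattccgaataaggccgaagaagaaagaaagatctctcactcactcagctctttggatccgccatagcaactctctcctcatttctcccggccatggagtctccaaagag
AT1G73710 and AT1G09407, facing 5′ ends, chr1:27720795-27721094, the 300 central bases of a gap of 491 bp, at a strand higher in ribo-minus RNA: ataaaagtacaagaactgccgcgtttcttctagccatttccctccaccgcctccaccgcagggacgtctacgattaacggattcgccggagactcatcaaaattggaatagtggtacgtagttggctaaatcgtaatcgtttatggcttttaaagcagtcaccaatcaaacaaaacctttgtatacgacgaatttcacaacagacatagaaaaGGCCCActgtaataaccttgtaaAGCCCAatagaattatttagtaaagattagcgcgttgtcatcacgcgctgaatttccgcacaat

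The signal that chose the windows ran over a wide range, and these values are a description of the choice. The weaker strand's mean in uninduced poly(A)+ libraries lay between 1021 and 97754 with a median of 8786, and the stronger strand's mean had a median of 20978. The ratio of weaker to stronger had a median of 0.462. Of 443 windows whose smaller mean reached the level, 198 did not meet the ratio of 0.2. Just inside the level threshold stood the windows at AT3G14360 (smaller mean 1021) and at RPA32B (1039), and just outside it those at MEE29 (991) and SAUR27 (979). Just inside the ratio threshold stood the windows at AT5G56220 (0.204) and AUD1 (0.206), and just outside it those at AT3G02400 (0.199) and MET1 (0.191). With a ratio threshold of 0.5 in place of 0.2, 106 windows would have been kept, and with 0.1, 306. Chromosomes 1 to 5 held 67 of 516, 29 of 262, 69 of 410, 30 of 289 and 50 of 442 windows, with the lowest share on chromosome 4 (10.4%) and the highest on chromosome 3 (16.8%).

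**Figure D1:**
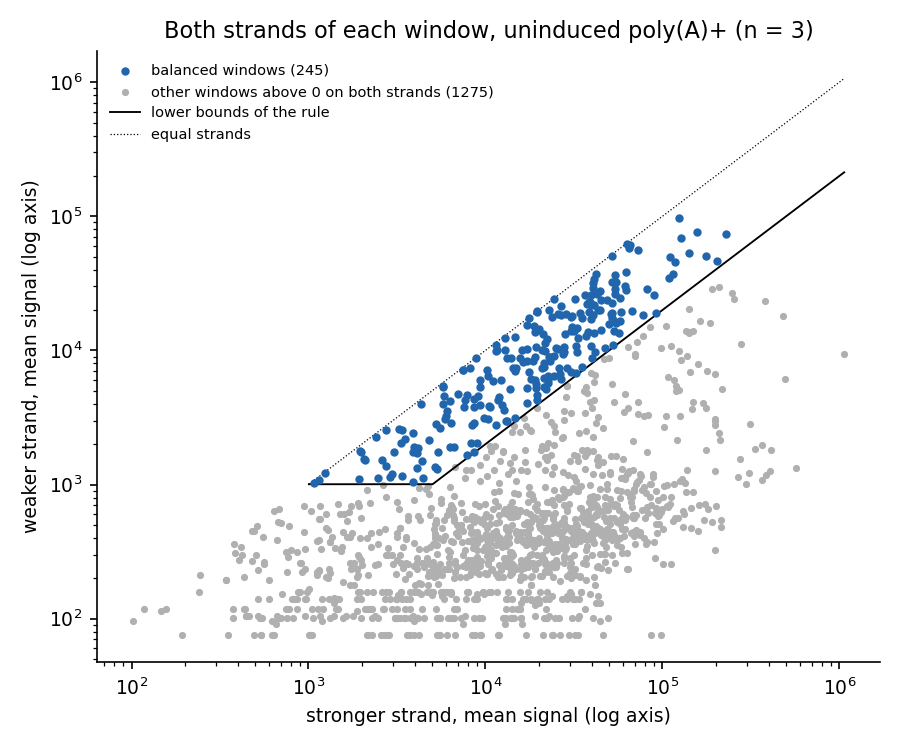
Mean signal of the weaker strand (vertical, log axis) against that of the stronger strand (horizontal, log axis) in 3 uninduced poly(A)+ libraries, 1 point per window. The 245 balanced windows (blue) lie above the lower bounds of the rule by construction, and 399 other windows with a weaker strand at 0 cannot be drawn on a log axis (22 of them had both strands at 0).

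Annotated genes lay on both strands of 236 of 245 balanced windows (96.3%), against 794 of 1919 windows in all (41.4%) and 144 of 198 windows (72.7%) that had the level of the rule on both strands but not the ratio. The annotation was not used by the rule. Per locus the share was 212 of 220 (96.4%), and with an overlap of at least 300 bp required between gene and window it was 220 of 245 (89.8%), against 642 of 1919 (33.5%). Both strands held a protein-coding gene in 224 balanced windows (91.4%), against 621 of all windows (32.4%).

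Convergent genes made up most of them. The 3′ ends of 2 genes faced each other in 203 balanced windows (82.9%), against 574 of all windows (29.9%) and 131 of the 198 (66.2%). Of all convergent windows 35.4% were balanced, of divergent windows 13.7% (25 of 183), and of windows with genes on 1 strand 0.801% (9 of 1124). Among windows with both strands at the level of the rule, 60.8% of convergent ones (203 of 334) were balanced. The share was 75.8% of divergent ones (25 of 33) and 14.3% of those with genes on 1 strand (9 of 63). Once at the level, divergent windows thus met the ratio more often than convergent ones. Level and ratio both come from the values that chose the windows. The stronger strand of balanced windows had a median of 4437 at divergent and 23108 at convergent genes. A window at the level with a low stronger strand meets the ratio by arithmetic, so nothing is read from 75.8% against 60.8%. Divergent genes were found in 25 balanced windows (10.2%), against 183 of all windows (9.54%) and 8 of the 198 (4.04%). Another 8 balanced windows had genes on both strands in some other order, and 9 had annotated genes on 1 strand only (3.67%, against 58.6% of all windows). The facing 3′ ends lay close together, with a median gap of 34 bp in balanced windows against 88.5 bp over all convergent windows. They overlapped in 86 balanced windows (42.4%), against 185 of all convergent windows (32.2%). In the convergent windows among the 198 the median gap was 41 bp and the ends overlapped in 56 (42.7%), close to the balanced windows. The facing ends lay a median of 205 bp from the window's midpoint, against 300 bp over all windows. Divergent genes were 666 bp apart at the median, against 538 bp over all divergent windows. Median GC content was 38.7%, against 37.3% over all windows and 38.35% in the 198. Short gaps, overlapping ends and this GC content were thus not particular to the balanced windows.

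**Figure D2:**
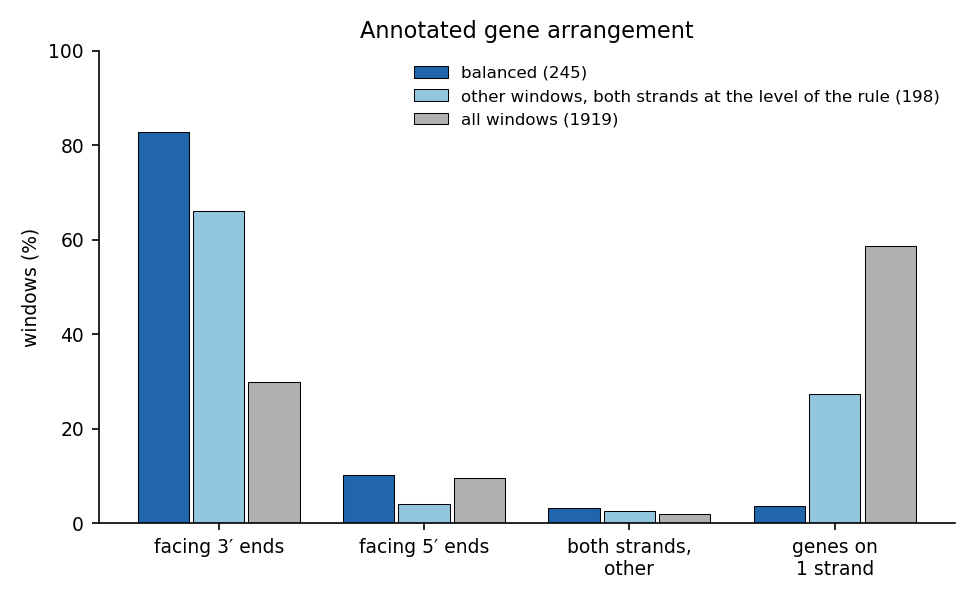
Share of windows (%) with each arrangement of annotated genes, for the 245 balanced windows, the 198 other windows with both strands at the level of the rule, and all 1919 windows. Facing 3′ ends account for 82.9% of balanced windows and 29.9% of all windows.

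Motifs in the 300 bp around the facing ends were about as frequent in balanced windows as elsewhere at convergent genes. AATAAA was found in 54.7% of balanced and 53.1% of all convergent windows. In the last 50 bases of the facing genes, on the sense strand, it was found in 9.85% of genes in balanced windows and 9.23% over all. Between divergent genes TATAAA was found in 14 of 25 balanced windows (56.0%), against 46.4% of all divergent windows, and TGGGCC in 6 of 25 (24.0%), against 18.6%. CACGTG was found in 3 of 25, against 4.92%. AAACCCTA was not in any of the 25 stretches and in 6.01% of all divergent ones. With 25 windows these shares rest on few matches and are a description.

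The level of the weaker strand differed between arrangements. Its median was 10636 at convergent genes, 1891 at divergent genes, 2701 at the other pairs and 1904 where genes lay on 1 strand. The highest weaker strand belonged to a window with TOC159, the receptor for protein import into chloroplasts, on the plus strand and GSTF2, a glutathione S-transferase, on the minus strand (chr4:1108345-1111344). There GSTF2 had 63654, 52471 and 59282 in induced and 118633, 82821 and 91807 in uninduced poly(A)+ libraries. TOC159 had 127760, 131346 and 122288 in induced and 111811, 127225 and 130807 in uninduced ones. The GSTF2 strand thus had no overlap between the conditions while the values of the TOC159 strand overlapped.

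Among convergent pairs, AT5G47700, a 60S acidic ribosomal protein gene, had 229089, 198517 and 257674 in induced and 253349, 239232 and 191768 in uninduced poly(A)+ libraries. Its partner AT5G47690 had 63429, 62804 and 65004 in induced and 71659, 74270 and 75095 in uninduced ones. SCY1, a subunit of the chloroplast protein translocase, had 52934, 51299 and 58936 in induced and 70948, 64832 and 71381 in uninduced libraries. TPS11 on the other strand, a trehalose phosphate synthase homologue, spread more, with 64889, 99801 and 46206 in induced and 69170, 185341 and 125148 in uninduced libraries. Its replicates differed by more than 2-fold within a condition, and its groups overlapped.

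Divergent pairs were lower. AT3G19663 shared its strand with a cyclin-like gene and had 13962, 13837 and 12748 in induced and 17500, 14715 and 16888 in uninduced poly(A)+ libraries, and AT3G19660 opposite had 6310, 7715 and 6696 in induced and 7350, 10834 and 6238 in uninduced ones. The gap between them is 78 bp and is shown above. In a window with MIR408, the precursor of a copper-responsive microRNA, on the plus strand, that strand had 9941, 10514 and 15174 in induced and 11545, 6500 and 13276 in uninduced libraries. AT2G47020, a peptide chain release factor gene on the minus strand, had 2992, 3519 and 3816 in induced and 3744, 4169 and 3612 in uninduced ones. Both pairs of groups in that window overlapped.

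The 9 balanced windows with annotated genes on 1 strand lay in 8 loci. The nearest gene on the strand without annotation was between 103 and 11023 bp away. The strand without annotation was the stronger one in 4 of the 9. At AT5G07590, a WD40 repeat gene, the unannotated plus strand had 8596, 4307 and 6988 in induced and 9990, 8303 and 6148 in uninduced poly(A)+ libraries, with the 3′ end of AT5G07580 facing it 103 bp away. At AT1G13530 and AT1G13540 no plus-strand gene lay within 11023 bp, and that strand had 1499, 1510 and 587 in induced and 1575, 2397 and 1955 in uninduced libraries. At SPT1, which encodes a subunit of serine palmitoyltransferase, the unannotated minus strand had 6450, 6409 and 7373 in induced and 6724, 4347 and 8813 in uninduced libraries. Its ribo-minus values were 3905, 2700 and 2499 in induced and 2926 and 2303 in uninduced seedlings.

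The balance of the strands was also found in libraries that the rule did not use. Of these, the uninduced ribo-minus libraries share total RNA with the libraries that chose the windows, so they are not an independent check. The other windows set beside the balanced ones are those that the rule left out. The median ratio of weaker to stronger strand was 0.449 in induced poly(A)+, 0.479 in induced ribo-minus and 0.478 in uninduced ribo-minus libraries, with the strands ordered anew in each group. In all other windows it was 0.0260, 0.0383 and 0 in these groups. Both thresholds of the rule were met by 221 of 245 balanced windows (90.2%) in induced poly(A)+, by 190 (77.6%) in induced ribo-minus and by 217 (88.6%) in uninduced ribo-minus libraries. Of 1674 other windows they were met by 39 (2.33%), 49 (2.93%) and 87 (5.20%). In the 2 uninduced ribo-minus libraries the level threshold lies at or close to the smallest value above 0, which was 786 in replicate 3. Convergent windows met the thresholds in 79.8% and divergent ones in 68.0% of cases in induced ribo-minus libraries. The median ratio in those libraries was 0.460 at convergent and 0.529 at divergent windows, so the lower share did not go with a lower ratio. In uninduced ribo-minus libraries 90.1% of convergent and 88.0% of divergent windows met the thresholds, with median ratios of 0.468 and 0.601.

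The weaker strand was the same as in uninduced poly(A)+ in 223 windows in induced poly(A)+, 209 in induced ribo-minus and 209 in uninduced ribo-minus libraries. Across windows, the log2 ratio of the strands in uninduced poly(A)+ had a Pearson's r of 0.668 with that in induced poly(A)+ (245 windows), 0.448 with induced ribo-minus (245) and 0.431 with uninduced ribo-minus (242). Between the fractions of induced seedlings r was 0.735. The rule limited the range of the ratio in uninduced poly(A)+ libraries, which enter the values of 0.668, 0.448 and 0.431. It set no such limit in the induced groups, so 0.735 cannot be compared with those values. All these r values are descriptions across windows that share libraries, total RNA and, within a locus, sequence.

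**Figure D3:**
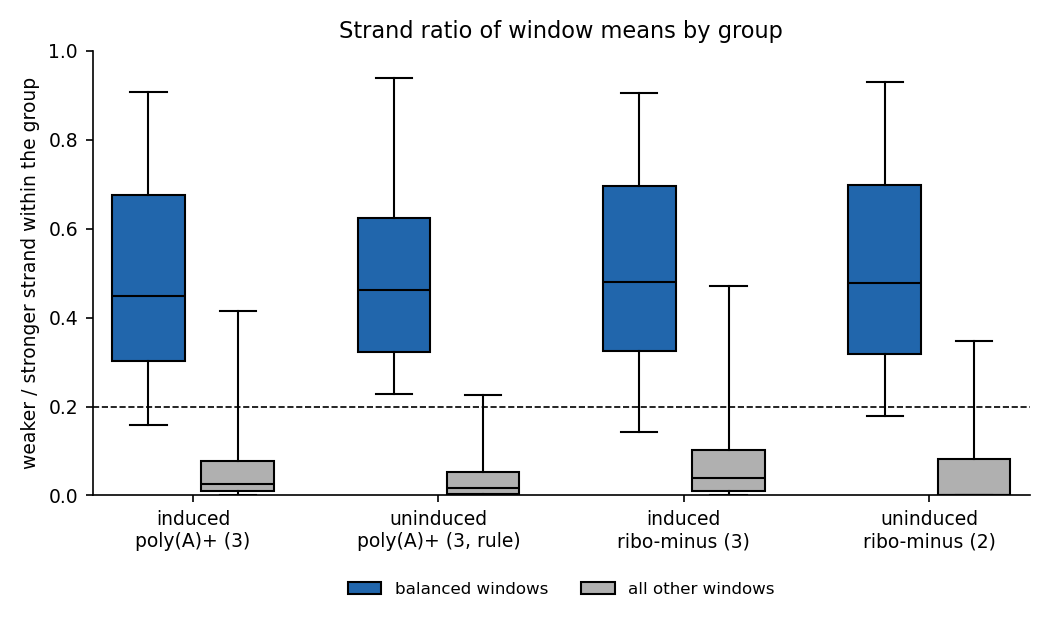
Ratio of weaker to stronger strand from group means (vertical, 0 to 1) for balanced windows (blue) and all other windows (grey) in each of the 4 groups, with the number of libraries in brackets. Boxes show quartiles and median, whiskers the 5th and 95th percentiles, and the dashed line is 0.2. Medians of balanced windows lie between 0.449 and 0.479, and the uninduced poly(A)+ values are those that chose the windows.

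In poly(A)+ libraries, induced and uninduced seedlings were compared strand by strand. In a fit over all 3297 testable strands, 30 of 490 strands of balanced windows passed (6.12%, against a background of 4.12% over all strands), 16 of them higher (background 2.37%) and 14 lower (background 1.76%) in induced seedlings. Since the uninduced libraries of this comparison chose the windows, these counts and the values below are a description and nothing is read from them. In 15 windows it was the weaker and in 15 the stronger strand that passed, and both passed in 0 windows, or in 3 with values raised to a common floor at the level of the rule. The 30 strands lay in 27 loci. The median log2 change was −0.09 over the 490 strands and −0.03 over all strands. The split between higher and lower depended on the setting. It was 21 higher and 10 lower with median-ratio scaling, 18 and 26 with no filter, 24 and 40 with a mean at the level of the rule required, 21 and 31 with a pseudocount of 100, and 24 and 41 with the common floor. Of the uninduced libraries, leaving out replicate 2 gave 9 calls and replicate 3 gave 16. Of the induced ones, leaving out replicate 1 gave 18 and replicate 3 gave 48, of which 16 were higher and 32 lower.

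Strands higher in induced seedlings that hold a noncoding RNA gene or a pseudogene, in part beside protein-coding genes, are given first. The minus strand of the window with AT1G79245, a transcribed pseudogene, had 772879, 682072 and 653313 in induced and 171891, 135310 and 165739 in uninduced poly(A)+ libraries (log2 change 2.16 ± 0.11 SE). The plus strand, with MST1, a mercaptopyruvate sulfurtransferase gene, and AT1G79240, a gene for tRNA-Arg, had 63582, 64472 and 67223 in induced and 73692, 76288 and 79774 in uninduced ones. In ribo-minus RNA, which the rule did not use, the AT1G79245 strand had 191043, 147908 and 144549 in induced and 31890 and 42042 in uninduced libraries. It rose there by a log2 change of 2.13 ± 0.21 SE, or 4.37-fold (adjusted p = 0.0151 by limma, an analysis of linear models with moderated variance), and the conditions did not overlap. Its call was lost with the unstranded library kept in the fit and with the replicate number as a block (highest limma adjusted p over 13 alternatives 0.267). Transcribed pseudogenes can share reads with their parent genes, so the value of this copy is uncertain.

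U2.3, a gene for the U2 small nuclear RNA of the spliceosome, had 69997, 74191 and 128506 in induced and 12307, 23194 and 17267 in uninduced poly(A)+ libraries (log2 change 2.36 ± 0.30). In ribo-minus RNA it had 751260, 907579 and 676143 in induced and 823612 and 705509 in uninduced libraries, which overlapped (0.02 ± 0.46, limma adjusted p = 0.999). The plus strand of that window, with the kinase genes AT3G57760 and AT3G57770, had 10195, 7328 and 6947 in induced and 6526, 6212 and 7843 in uninduced poly(A)+ libraries. U2 genes are a multigene family of near-identical copies, and how reads were shared among them is not given, so the value of 1 copy is uncertain.

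At AT3G25490, a kinase-like gene, and the transcribed pseudogene AT3G25495 on the same strand, poly(A)+ signal was 22919, 25110 and 27005 in induced and 4367, 6566 and 6334 in uninduced libraries (2.14 ± 0.17). Ribo-minus signal was 17446, 19225 and 21450 in induced and 3245 and 10167 in uninduced libraries (1.75 ± 0.43, limma adjusted p = 0.161). The opposite strand, with the formin-like gene AT3G25493, had 2335, 2183 and 3823 in induced and 3458, 5780 and 6664 in uninduced poly(A)+ libraries, which overlapped. The U1.7 gene, for the U1 small nuclear RNA, shared its strand with the RING/U-box gene AT3G05670. That strand had 23164, 25250 and 36954 in induced and 13894, 14773 and 14516 in uninduced poly(A)+ libraries (0.95 ± 0.17). In ribo-minus RNA it had 37820, 30329 and 34174 in induced and 14241 and 9730 in uninduced libraries and rose by 1.53 ± 0.19 (limma adjusted p = 0.0328). That call was lost in limma without the trend and with the replicate number as a block (highest limma adjusted p over 13 alternatives 0.267). The long noncoding RNA gene AT5G10965 had 4374, 4149 and 5606 in induced and 1864, 1935 and 2387 in uninduced poly(A)+ libraries (1.19 ± 0.19). Its ribo-minus values overlapped, with 1868, 895 and 1016 in induced and 1508 and 1048 in uninduced libraries.

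Among protein-coding genes higher in induced seedlings was SAG29, a senescence-associated sugar transporter gene, with 24179, 25291 and 50420 in induced and 7076, 10804 and 8888 in uninduced poly(A)+ libraries (1.83 ± 0.30). PBS1 opposite it, a kinase gene known from bacterial resistance, had 25311, 23204 and 24072 in induced and 22786, 22641 and 23896 in uninduced ones, which overlapped. AK3, an aspartate kinase gene of amino acid synthesis, had 11094, 6940 and 14049 in induced and 4050, 3934 and 4321 in uninduced libraries (1.32 ± 0.25). ECT8, which belongs to the family of readers of N6-methyladenosine, had 95199, 77326 and 70910 in induced and 42309, 30598 and 48182 in uninduced libraries (1.02 ± 0.18). The nuclear pore gene NUA, whose 3′ end overlaps that of ECT8 by 709 bp, had 30790, 28229 and 28399 in induced and 27751, 29636 and 30422 in uninduced libraries. In ribo-minus RNA none of SAG29 (1.09 ± 0.42, limma adjusted p = 0.268), AK3 (0.70 ± 0.32, 0.365) and ECT8 (0.47 ± 0.18, 0.255) passed. The conditions did not overlap in each, but the share of all strands without overlap was not computed, so nothing is read from this.

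The largest difference downward was on the strand of AT3G58550, a lipid-transfer protein gene that shares it with the noncoding gene AT3G09135. It had 6993, 6944 and 9749 in induced and 26619, 30406 and 42269 in uninduced poly(A)+ libraries (−2.06 ± 0.20). Its ribo-minus values were 1087, 2347 and 3473 in induced and 8199 and 12510 in uninduced libraries (−2.29 ± 0.49, limma adjusted p = 0.161). The plus strand, with AT3G58530 and AT3G58540, had 9357, 9168 and 8301 in induced and 9156, 8155 and 11690 in uninduced poly(A)+ libraries. BZIP61, a transcription factor gene, had 30167, 28698 and 33473 in induced and 48749, 52758 and 54596 in uninduced ones (−0.76 ± 0.08). MYB92, a transcription factor gene linked to suberin, had 2019, 2541 and 1904 in induced and 3769, 3956 and 4967 in uninduced libraries (−0.97 ± 0.20). IQD6, a gene of the calmodulin-binding IQ-domain family, had 3452, 2995 and 4006 in induced and 6507, 6410 and 6261 in uninduced libraries (−0.89 ± 0.14). CYP711A1 opposite it, an enzyme gene of strigolactone synthesis, had 12443, 9416 and 10675 in induced and 11097, 9997 and 9854 in uninduced libraries, which overlapped.

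At AT1G15740 and TPL, which encodes the co-repressor TOPLESS, the transcripts share 103 bp at their ends. AT1G15740, a leucine-rich repeat gene, had 38512, 41216 and 41423 in induced and 54612, 64481 and 67911 in uninduced poly(A)+ libraries (−0.62 ± 0.09), and 13432, 10838 and 12626 in induced and 19650 and 21235 in uninduced ribo-minus libraries (−0.74 ± 0.14, limma adjusted p = 0.161). TPL had 59481, 59470 and 60972 in induced and 65208, 62291 and 62838 in uninduced poly(A)+ libraries (−0.08 ± 0.06). The groups of AT1G15740 did not overlap in either fraction, those of TPL did not overlap in poly(A)+ libraries, and 3 overlapping windows share this locus. Since the share of all strands without overlap was not computed, nothing is read from these. AT1G22550 (−0.64 ± 0.09), GSTF2 (−0.73 ± 0.14) and AT5G06970 (−0.51 ± 0.06) were the other named strands lower in induced poly(A)+ libraries.

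Of the 16 strands named for poly(A)+, 6 passed under each of the 13 alternatives tried: U2.3, AT1G79245, AT3G25490, AT3G58550, BZIP61 and AT5G06970. The alternatives reuse the libraries that chose the windows, and the strands were named for their large change. Passing under them therefore describes the dependence on the setting and adds no support to a call. Leaving out uninduced replicate 2 ended the calls of SAG29 (lowest log2 change over all left-out libraries 1.49), AK3 (1.098), AT5G10965 (1.06), ECT8 (0.83), U1.7 (0.75), MYB92, IQD6, AT1G22550 and AT1G15740. Uninduced replicate 1 or 3 did so for AK3, AT5G10965, ECT8, U1.7, MYB92, IQD6, SAG29, GSTF2 or AT1G15740, and an induced library for AK3, ECT8, MYB92, IQD6, GSTF2 or AT1G22550. No value changed sign.

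**Figure D4:**
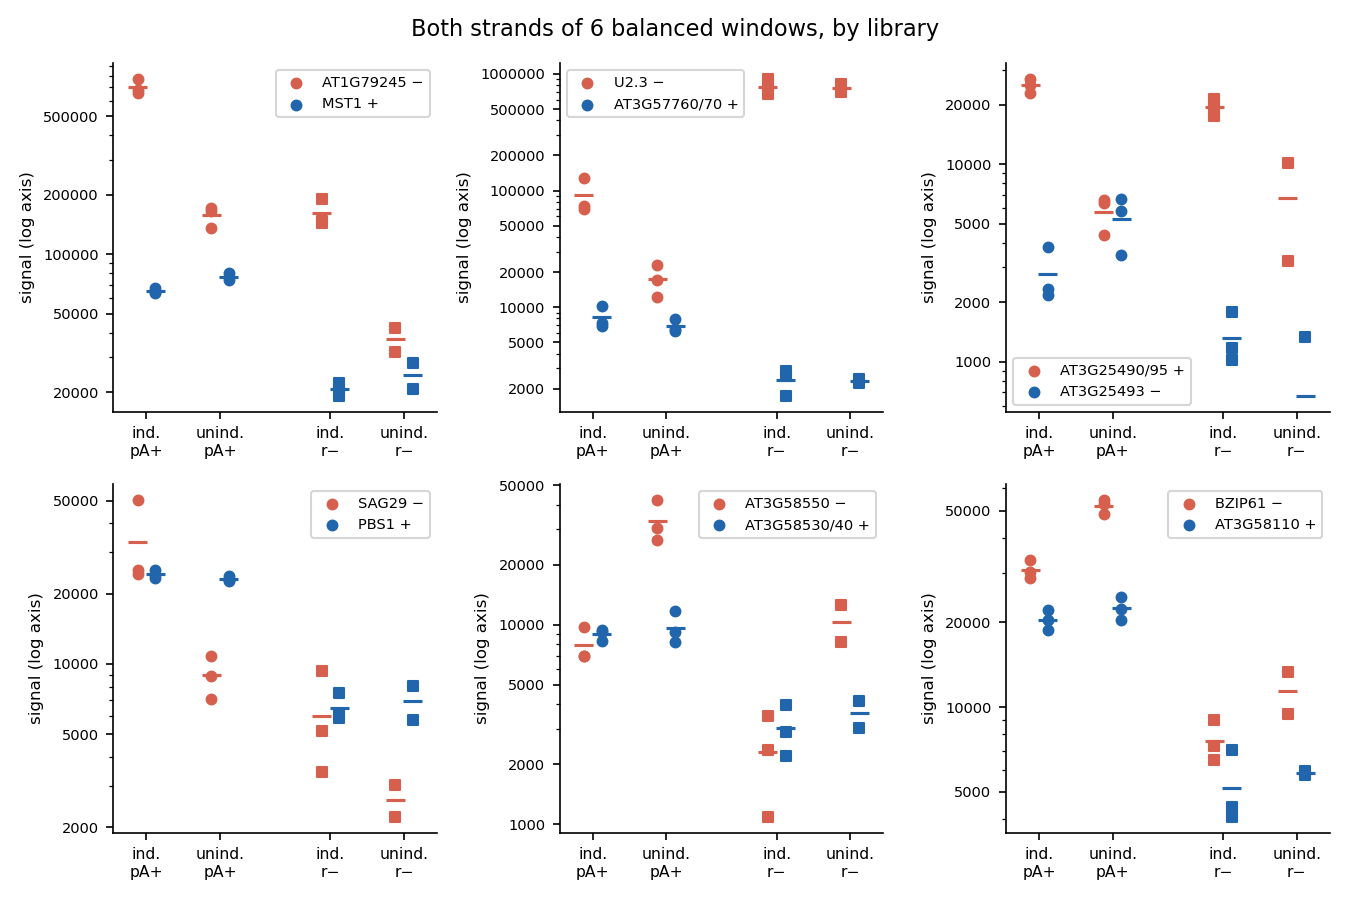
Signal per library (vertical, log axes) of both strands of 6 balanced windows, in induced and uninduced poly(A)+ (ind. pA+, unind. pA+; circles, 3 libraries each) and induced and uninduced ribo-minus seedlings (ind. r−, unind. r−; squares, 3 and 2 libraries). Horizontal lines are means, and 1 value of 0 (AT3G25493, uninduced ribo-minus) enters its mean but cannot be drawn. The strand in red differs between induced and uninduced poly(A)+ libraries in each panel, and U2.3 has overlapping values in ribo-minus libraries.

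In ribo-minus RNA, 2 of 490 strands of balanced windows were higher in induced seedlings (AT1G79245 and AT3G05670 with U1.7, 0.408%, against a background of 0.279% of 2868 strands) and 0 were lower (background 0.0697%) by limma. At an unadjusted p below 0.05 there were 73 of 490 strands, 57 of them lower, against 432 of 2868 over all strands, 206 of them lower. The median log2 change was −0.16 over balanced windows and −0.12 over all strands. With median-ratio scaling these medians were 0.05 and 0.10, so the sign of small changes depends on the scaling. By arrangement the median was −0.14 at convergent, −0.37 at divergent and −0.56 at 1-strand windows. The number of calls was 9 without uninduced replicate 2 (6 higher, 3 lower) and 26 without uninduced replicate 3 (19 higher, 7 lower). Without induced replicates 1, 2 and 3 it was 8, 10 and 10, of which 6, 7 and 6 were lower. The smallest p among the strands that were lower belonged to AT1G15740, which did not pass.

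**Figure D5:**
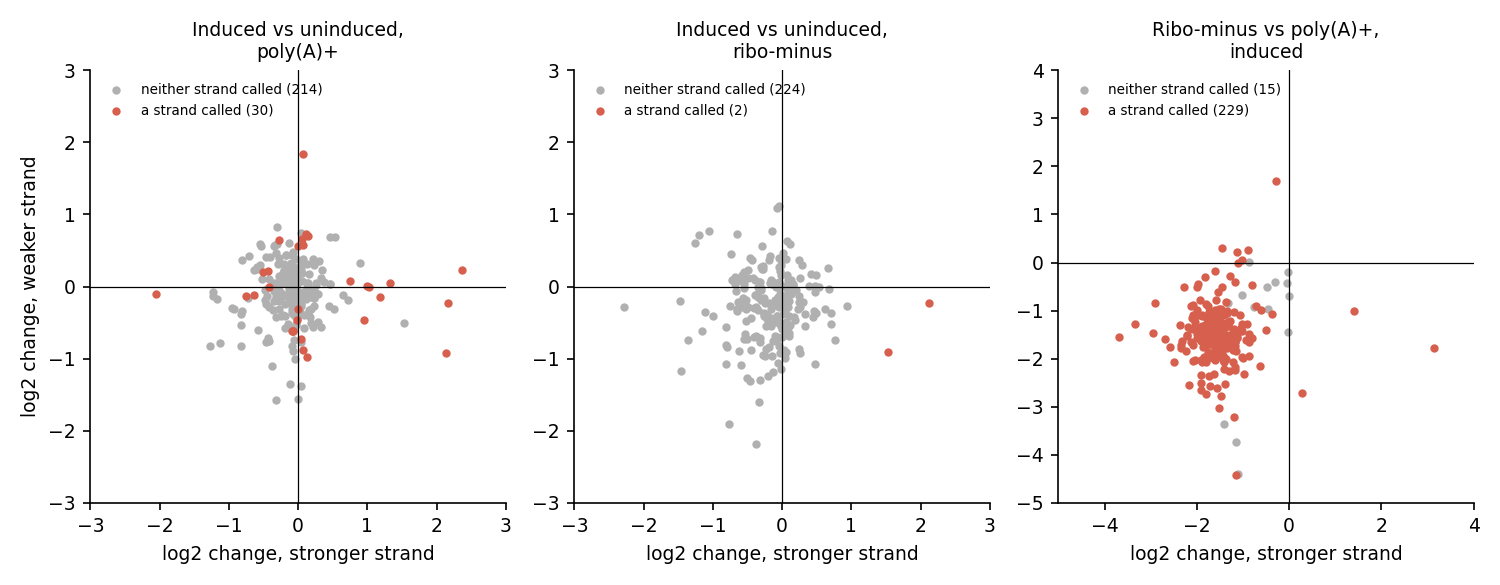
Log2 change of the weaker strand (vertical) against that of the stronger strand (horizontal), 1 point per balanced window, for induced against uninduced poly(A)+, induced against uninduced ribo-minus, and ribo-minus against poly(A)+ in induced seedlings. Red points have at least 1 strand past an adjusted p of 0.05. Of 245 windows 244, 226 and 244 lie within the axes and have both strands tested. After induction each red point has 1 strand that passed and 1 that did not, and in the fraction comparison both strands are below 0 in most windows.

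Between the RNA fractions of induced seedlings, both strands of a balanced window usually had less deposited signal in ribo-minus RNA than in poly(A)+ RNA. Of 489 strands tested, 424 were lower (86.7%, against a background of 50.3% of 3325 strands) and 3 were higher (0.613%, background 1.53%) in ribo-minus RNA. This fit does not use the pairing of the fractions by shared total RNA, nor do the p-values of single strands below. With that pairing as a replicate block 419 strands of balanced windows were lower and 3 higher, and 1724 of 3325 strands in all passed. The background includes low strands, which the level of the rule keeps out of the balanced windows. With values raised to the common floor, 436 of 476 strands of balanced windows and 1775 of 2108 strands in all (84.2%) passed in either direction. In 198 of 244 windows both strands passed, and in 15 with median-ratio scaling. The median log2 difference was −1.52 over balanced windows and −1.37 over all strands, so most of it is a shift of the whole table between fractions. With median-ratio scaling the medians were −0.18 and −0.03, and 134 strands of balanced windows passed, 30 higher and 104 lower. By arrangement the median was −1.57 at convergent and −0.88 at divergent genes. The differences below should be read against the −1.37 over all strands.

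The 3 strands higher in ribo-minus RNA were U2.3, TOPII and AT1G73710, and they passed under every alternative tried. U2.3, whose RNA is not polyadenylated when mature, had 751260, 907579 and 676143 in ribo-minus libraries and 69997, 74191 and 128506 in poly(A)+ ones of induced seedlings. Its log2 difference was 3.14 ± 0.24 SE (limma adjusted p = 1.89e-07). TOPII, which encodes topoisomerase II, had 3754, 2682 and 4111 in ribo-minus libraries and 778, 944 and 1642 in poly(A)+ ones (1.70 ± 0.37, limma adjusted p = 0.00161). The divergent gene AT3G23880, an F-box gene, had 3824, 2809 and 2598 in ribo-minus libraries and 2294, 4752 and 4679 in poly(A)+ ones, which overlapped. AT1G73710, a pentatricopeptide repeat gene, had 3465, 2310 and 2572 in ribo-minus libraries and 751, 1793 and 838 in poly(A)+ ones (1.40 ± 0.42, limma adjusted p = 0.0127). Its gap to the noncoding gene AT1G09407 holds a site II match of each kind in the stretch shown above.

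The lowest ribo-minus signal relative to poly(A)+ among the named strands was in each case at a convergent pair. Convergent windows held 382 of the 424 lower strands of balanced windows, so this is not particular to the named ones. AT1G42430, annotated as an inactive purple acid phosphatase-like gene, had 1467, 1707 and 1341 in ribo-minus libraries and 18564, 22297 and 17089 in poly(A)+ ones (−3.68 ± 0.18, limma adjusted p = 1.88e-08). AT1G42440 opposite it, related to the pre-rRNA processing factor TSR1, had 9059, 8660 and 7469 in ribo-minus libraries and 24692, 26155 and 22386 in poly(A)+ ones (−1.54 ± 0.13). EIF3C, a translation initiation factor gene, had 27868, 22436 and 21132 in ribo-minus libraries and 185504, 181945 and 177749 in poly(A)+ ones (−2.94 ± 0.13, limma adjusted p = 1.25e-08). Its partner AT3G56140 had 19061, 15658 and 14513 in ribo-minus libraries and 52001, 43193 and 40028 in poly(A)+ ones (−1.46 ± 0.14). NSP2, a nitrile specifier gene of glucosinolate breakdown, had 1294, 716 and 672 in ribo-minus libraries and 12903, 11045 and 4582 in poly(A)+ ones (−3.34 ± 0.40). AT3G53040 (−3.21 ± 0.73), AT4G24110 (−3.02 ± 0.44) and AT3G51325 (−2.91 ± 0.27) followed, and AT3G53040 no longer passed with median-ratio scaling. Its value was −1.67 with the common floor and ranged from −3.99 to −2.67 with 1 library left out.

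The ratio of the strands itself was tested as the log2 of weaker over stronger, which cancels any scaling of a library. Between ribo-minus and poly(A)+ RNA of induced seedlings, 7 of 244 balanced windows passed (2.87%, against a background of 1.60% of 1441 windows). The fractions come from shared total RNA, and with that pairing as a replicate block 0 of 1441 windows passed, 0 of them balanced. In the window of U2.3 the ratio of the kinase gene strand to the U2.3 strand was 0.00306 in ribo-minus libraries and 0.0897 in poly(A)+ ones (−4.93 ± 0.36, limma adjusted p = 0.00259 without the block). In the window of U1.7 the ratio of AT3G05675 to the U1.7 strand was 0.0254 in ribo-minus libraries and 0.192 in poly(A)+ ones (−3.001 ± 0.28, adjusted p = 0.00275 by limma). At AT1G42430 and AT1G42440 the ratio was 5.58 in ribo-minus libraries and 1.26 in poly(A)+ ones (2.14 ± 0.19, limma adjusted p = 0.00275). At AT3G56140 and EIF3C it was 0.689 in ribo-minus libraries and 0.248 in poly(A)+ ones (1.48 ± 0.12, limma adjusted p = 0.00259). CER2, a gene of wax synthesis, against ATR1, a cytochrome P450 reductase gene, shifted by 0.94 ± 0.16. KEG, a ubiquitin ligase gene of abscisic acid signalling, against the strand of AT5G13548 and the sulfate transporter gene SULTR4;1 shifted by −1.30 ± 0.22. PUB17, a U-box ubiquitin ligase gene, against AT1G29350 shifted by −1.06 ± 0.14. The calls of CER2 and KEG were lost with any 1 library left out (ranges 0.85 to 1.07 and −1.41 to −1.19), and that of PUB17 without any 1 poly(A)+ library or ribo-minus replicate 3 (−1.16 to −0.97).

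After induction in ribo-minus RNA the ratio passed in 7 of 245 balanced windows (2.86%), against a background of 15.7% of 1019 windows. That background depended on the setting: 24 of 1664 windows passed with no filter, 4 of 1019 with a pseudocount of 100 and 9 of 392 with a mean at the level of the rule required, of which 1, 1 and 2 were balanced. In 3 of the 7 the weaker strand was listed at 0 in both uninduced libraries, so no fold is given. These 3 windows met the filter through the induced libraries alone, so nothing is read from their calls. How many windows of the background did the same was not counted. In a window with AT2G24692 and AT2G24693 the weaker strand had 776, 406 and 682 in induced libraries, at PLL1 776, 502 and 478, and at ROXY1, a glutaredoxin gene, 1035, 519 and 848. Other than 1035 and 848, these values lie below 786, the lower of the 2 smallest values above 0 in the uninduced libraries. In the AT1G79245 window the ratio of MST1 to AT1G79245 was 0.128 in induced and 0.660 in uninduced libraries (−2.35 ± 0.30, limma adjusted p = 0.0260). In the U1.7 window it was 0.0254 in induced and 0.130 in uninduced libraries (−2.44 ± 0.48, limma adjusted p = 0.0314). GSTF2 against TOC159 was 0.577 in induced and 0.930 in uninduced libraries (−0.67 ± 0.12, limma adjusted p = 0.0260), a call lost under all 12 alternatives. UNE18, an oxysterol-binding protein gene, had 5251, 3899 and 3325 in induced and 1944 and 3207 in uninduced ribo-minus libraries, and AT5G02090 opposite had 3634, 2611 and 1465 in induced and 5275 and 5806 in uninduced ones. Their ratio was thus 1.62 in induced and 0.465 in uninduced libraries (1.91 ± 0.42, limma adjusted p = 0.0490). The calls of AT1G79245, U1.7 and UNE18 were lost without the trend, with the replicate block and with the unstranded library kept. Those of U1.7 and UNE18 were also lost with no filter and with a pseudocount of 100. That of UNE18 was lost with a mean at the level of the rule required too. Without any 1 induced library 0 windows passed, balanced or not, and without uninduced replicate 3 there were 18 balanced of 294 in all.

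Genes of the exosome, of 5′ exonucleases and of 3′ end processing lay in 2, 1 and 1 of all 1919 windows (0.104%, 0.0521% and 0.0521%), and in 1 balanced window each (0.408%). Of 18 genes of the exosome and its cofactors, CER7, an exosome core subunit gene, lay in a balanced window, with 13230, 13422 and 15203 in induced and 11837, 13196 and 13492 in uninduced poly(A)+ libraries. Its groups overlapped, and it did not pass in ribo-minus RNA (0.08 ± 0.21, limma adjusted p = 0.912). XRN3, a nuclear 5′ exonuclease gene and 1 of 3 such genes looked for, had 45110, 39921 and 39554 in induced and 41970, 38682 and 39523 in uninduced poly(A)+ libraries. Its convergent partner AT1G75670, an RNA polymerase subunit gene, had 15117, 13823 and 12796 in induced and 9206, 8631 and 8466 in uninduced ones (0.66 ± 0.10), without overlap. CSTF64, a cleavage stimulating factor gene and 1 of 8 genes of 3′ end processing looked for, had 7255, 7584 and 7704 in induced and 6162, 5771 and 8441 in uninduced libraries.

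By gene type, tRNA genes lay in 16 balanced windows (6.53%, against 3.80% of all windows) and long noncoding RNA genes in 23 (9.39%, against 9.69%). Small nuclear RNA genes (U1.7, U2.3 and U6.6) lay in 3 (1.22%, against 0.521%) and a small nucleolar RNA gene in 1 (0.408%, against 0.313%). The counts that follow stand against 86.7% of balanced strands and 50.3% of all strands lower in ribo-minus than in poly(A)+ RNA. All 16 strands with a tRNA gene were lower, with a median of −1.73 against −1.52 over balanced strands and −1.37 over all strands. Each value is of a whole strand of a window, which such genes can share with protein-coding genes, as AT1G79240 does with MST1. Of 26 strands with a long noncoding RNA gene 22 were lower, with a median of −1.65, a share close to that of all balanced strands. U6.6, a gene for the U6 small nuclear RNA, was lower in ribo-minus than in poly(A)+ RNA by a log2 difference of −2.03, on a strand it shares with AT4G35220. Genes whose description names ubiquitin lay in 10 balanced windows (4.08%, against 2.29% of all) and zinc finger genes in 13 (5.31%, against 3.91%). Pentatricopeptide genes lay in 3 (1.22%, against 1.25%), and histone-related (HD2C) and ribosomal protein (AT5G47700) genes in 1 each. Neither annotated antisense RNA genes nor the 7 loci with studied antisense RNA that were looked for, FLC among them, lay in a balanced window, while 3 and 2 of all windows held one.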

How the data were processed

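Stranded RNA-seq of 12 libraries was deposited as whole-number signal for each strand of each 3000-bp window. Per the submitters' processing notes the authors used TAIR10 with TopHat2 2.0.9, CASAVA 1.8.2, Cuffdiff and Cufflinks 2.1.1. How the deposited signal was made and scaled is not given in the sources used here, so totals of signal are not read depth, and libraries of unequal depth have unequal detection limits.

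The level threshold of the rule was 1005. Windows were placed on the RefSeq annotation of the TAIR10 nuclear sequence (positions counted from 1). Each strand was fitted with limma 3.58.1 in R 4.3.3 (lmFit, eBayes with trend) on log2(value + 1) over the whole table, without rescaling, where it was above 0 in at least 3 fitted libraries. Benjamini-Hochberg adjustment ran over the whole table, with 0.05 as the threshold. Changes of strands with values at 0 depend on the pseudocount and can be overstated. The log2 ratio of the strands was fitted likewise for all windows with both strands testable. Uninduced ribo-minus replicate 1, with the same values on both strands, was left out of strand fits. The fit with it kept is an alternative. Replicates are biological per the labels. Tables were made in Python 3.11.15 (pandas 2.3.3, numpy 2.4.6, scipy 1.17.1) and figures in matplotlib 3.10.9.

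Replicate numbers pair the fractions, which share total RNA per the labels (correlations of deviations 0.144, 0.189 and 0.294 in induced seedlings). For induced against uninduced seedlings the numbers are not shown to pair libraries.

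The named strands are those past the threshold without overlap between groups that changed most: up to 8 each way for poly(A)+, 6 each way for ribo-minus and for the fractions (the 3 smallest p where none passed), and 4 each way for the strand ratio. The 4 highest loci per arrangement, the 2 windows on each side of each threshold and members that hold a gene of the lists were added, and overlapping windows over a gene were named once. Members and lists were chosen with earlier results of these data known. Alternatives were no filter, a mean of at least 1005, a pseudocount of 100, median-ratio scaling, limma without the trend, the replicate block, every library left out in turn, other thresholds of the rule and a gene overlap of 300 bp. A common floor of 1005 and the unstranded library kept were tried too. The fits were tested on simulated data.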

Additional observations from a re-analysis of the deposited data

Results flagged for a closer look

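On 3 of 490 strands of balanced windows, every induced library stood on one side of the uninduced libraries in poly(A)+ RNA and on the other side in ribo-minus RNA. The share of such strands over the whole table was not computed, so nothing is read from this count. The difference between the fractions was not tested for these strands, the uninduced poly(A)+ values helped to choose the windows, and 2 uninduced ribo-minus libraries had separate strands. AT1G29810 had 9053, 8819 and 8059 in induced and 11436, 9971 and 10245 in uninduced poly(A)+ libraries (log2 change −0.29), and 4063, 2327 and 2418 in induced and 1307 and 1685 in uninduced ribo-minus libraries (0.93). YAB5, a transcription factor gene of the YABBY family, had 18456, 17055 and 20244 in induced and 13836, 15381 and 15111 in uninduced poly(A)+ libraries (0.33), and 8598, 6268 and 4344 in induced and 8874 and 9636 in uninduced ribo-minus libraries (−0.59). PIL2, a transcription factor gene related to the phytochrome-interacting factors, had 1484, 1482 and 1797 in induced and 1035, 1288 and 1125 in uninduced poly(A)+ libraries (0.47), and 998, 568 and 992 in induced and 1341 and 1573 in uninduced ribo-minus libraries (−0.81).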

How the results depend on the processing

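The causes of the differences below were not tested. With a mean at the level of the rule required, a pseudocount of 100, values raised to that level as a common floor, and no trend, the number of strands that passed after induction was 64, 52, 65 and 11 in poly(A)+ RNA (30 as reported) and 6, 9, 8 and 5 in ribo-minus RNA (2 as reported). In the same order the number of windows whose strand ratio passed was 2, 1, 4 and 3 after induction in ribo-minus RNA and 38, 16, 61 and 1 between the fractions (7 as reported in each). Without a filter 44 strands passed in poly(A)+ RNA and 1 window passed for the ratio after induction. With the unstranded library kept, 1 strand and 0 windows passed in ribo-minus RNA. With median-ratio scaling 134 strands passed between the fractions (427 as reported). Leaving out 1 library gave 9 to 48 strands in poly(A)+ and 8 to 26 in ribo-minus RNA, 0 to 18 windows for the ratio after induction and 4 to 8 between the fractions. Where 1 uninduced ribo-minus library is left, it is assumed to vary like the others.

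With the replicate number as a block, 14 strands passed in poly(A)+ RNA, 0 strands and 0 windows in ribo-minus RNA, and between the fractions 422 strands and 0 windows. Pairing holds for the fractions alone. Between induced and uninduced poly(A)+ libraries the same-numbered correlations were 0.101, 0.102 and −0.05.

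A balance threshold of 0.5 kept 106 windows and a gene overlap of 300 bp gave 89.8% with genes on both strands. No named strand or window changed sign under an alternative, whereas the median change over balanced strands in ribo-minus RNA after induction was −0.16 as reported and 0.05 with median-ratio scaling. Unequal detection limits bound what low strands can show.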
